A study of Mus musculus with 20 samples.

Results

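Schwann cell and axon genes of the mouse intervertebral disc are described here through 7 genes, taken from the 51789 genes of the deposited expression table by their symbols. They are Sox10, Mag, Prx, Mbp and Pmp22, which belong to Schwann cells and their myelin, and Snap25 and Nefl, which belong to neurons and their axons. The genes were chosen by name, with earlier results of these data known. RNA was sequenced from 2 disc compartments, the soft central nucleus pulposus (NP) and the layered collagenous annulus fibrosus (AF) that encloses it, of BL6 mice aged 24 months. From 18 months of age the mice had received a weekly intraperitoneal injection for 6 months, either of DMSO (vehicle) or of MDL-800, a small molecule activator of the deacylase SIRT6, in the same amount of DMSO. All groups therefore carried the solvent, and the dose of MDL-800 was not given in the sources used here. There are 4 groups of 5 libraries: NP and AF with vehicle, and NP and AF with MDL-800. A library is called by its group and its title's number. The labels call the samples cells, while the protocol describes dissected tissue put straight into a preservative. The labels do not say that the libraries of a group came from separate mice, so p-values measure the spread between these libraries only.

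Schwann cells are the glia of peripheral nerves. Myelinating Schwann cells wrap single large axons in layers of membrane rich in lipids and in a few abundant proteins, while non-myelinating ones ensheath bundles of thin axons. In a healthy disc, nerve fibres are known to reach the outer AF and the neighbouring ligaments and bone, and the NP is normally without nerves or vessels. The cell bodies of the sensory neurons that supply the disc lie in the dorsal root ganglia beside the spine, and an axon in the disc carries only a small part of the messenger RNA of its neuron. Several of these genes are also active elsewhere: oligodendrocytes of the spinal cord use Sox10, Mag and Mbp, Pmp22 is expressed in many cell types outside nerve, and the Mbp locus also encodes the golli proteins outside myelin.

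Positions are on the mouse build GRCm38, by the GENCODE M21 annotation. Sox10 (ENSMUSG00000033006) spans chr15:79154908-79165240 on the minus strand. Mag (ENSMUSG00000036634, chr7:30899176-30914873, minus strand) and Prx (ENSMUSG00000053198, chr7:27499324-27520214, plus strand) are on the same chromosome. Pmp22 (ENSMUSG00000018217) spans chr11:63128982-63159547 on the plus strand. Snap25 (ENSMUSG00000027273) spans chr2:136713453-136782428 and Nefl (ENSMUSG00000022055) chr14:68083863-68089095, both on the plus strand. All 7 genes are annotated as protein coding.

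The upstream sequences of Mag and Prx are shown because these genes were among the members most alike across AF libraries, as described further on. Each line gives 250 bases before the start of a RefSeq transcript on GRCm38.p6, written 5′ to 3′ along the gene's own strand, for Mag from chr7:30914864-30915113 on the minus strand and for Prx from chr7:27499074-27499323 on the plus strand. Capitals mark a match to ACAAAG or ACAATG on either strand, core letters bound by SOX factors.
Mag: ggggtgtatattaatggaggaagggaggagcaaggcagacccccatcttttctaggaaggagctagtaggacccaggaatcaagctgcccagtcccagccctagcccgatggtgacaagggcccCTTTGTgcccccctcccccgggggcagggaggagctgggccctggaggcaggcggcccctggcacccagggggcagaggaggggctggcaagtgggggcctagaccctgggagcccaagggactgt
Prx: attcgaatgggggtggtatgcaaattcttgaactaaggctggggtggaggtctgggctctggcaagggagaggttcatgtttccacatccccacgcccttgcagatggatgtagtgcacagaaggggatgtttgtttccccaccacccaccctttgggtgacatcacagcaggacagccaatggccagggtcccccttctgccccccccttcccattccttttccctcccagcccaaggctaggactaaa
The Mag window shown held 1 match, read as CTTTGT, whose first base lies at -126 from the start, and the Prx window held none. Mag has 3 RefSeq windows: a second one, which overlaps the first, held the same match at -67 from its own start, and the third held none. Of 32851 RefSeq windows of the same length, 25.2% held such a match. GTGGGCG, a core bound by EGR factors, was in none of these windows on either strand and in 7.02% of all windows. For Pmp22, 4 windows were searched and held neither motif. These matches describe letters and not binding.

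Expression was deposited as FPKM (fragments per kilobase of transcript, corrected for library size), a level per length, so that values of different genes can be set side by side. Values below are FPKM after a scaling factor for each library. Depth, estimated from the steps between low values, was 12.8 to 22.0 megareads per library. By group it was 19.2 ± 2.4 (SD, n = 5) in NP vehicle, 18.5 ± 3.29 in NP with MDL-800, 19.4 ± 1.04 in AF vehicle and 19.8 ± 1.38 in AF with MDL-800. At these depths a single read of Sox10 was worth about 0.016 to 0.027 FPKM, and lower values could not be seen. Of 9 NP markers tested, 7 were higher in NP of vehicle-treated mice, Car12 was lower and Basp1 did not pass, while Noto was not tested. Of 10 AF markers, 9 were lower in NP. Tests used limma on log2(scaled FPKM + 1), with Benjamini-Hochberg adjustment over 16383 genes that reached 1 FPKM in 5 or more libraries, and a gene was called at an adjusted p under 0.05. Differences on this scale understate the change of low genes.

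Of the 7 genes, 5 entered the tests. Snap25 and Nefl reached 1 FPKM in too few libraries. Mag and Sox10 reached 1 FPKM in AF libraries only, and Prx in a single NP library and all 10 AF libraries. These 3 genes were therefore tested because AF was high, and their count says nothing beyond the single values. In bulk tissue, fewer cells of a type and less RNA per cell cannot be told apart.

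Sox10, Mag, Prx and Mbp were lower in NP than in AF in both treatments, and Pmp22 was not called in either. In vehicle-treated mice 4 of the 5 tested genes were called, all lower in NP, where 55.7% of all tested genes were called, 33.9% lower and 21.8% higher. In MDL-800-treated mice 4 of 5 were again called lower, where 62.8% of tested genes were called, 37.2% lower and 25.6% higher. All NP libraries lay below all AF libraries for 4 of the 5 tested genes with vehicle and for 3 of 5 with MDL-800. Over all tested genes, 25.9% and 30.5% had no such overlap in this direction.

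**Figure D1:**
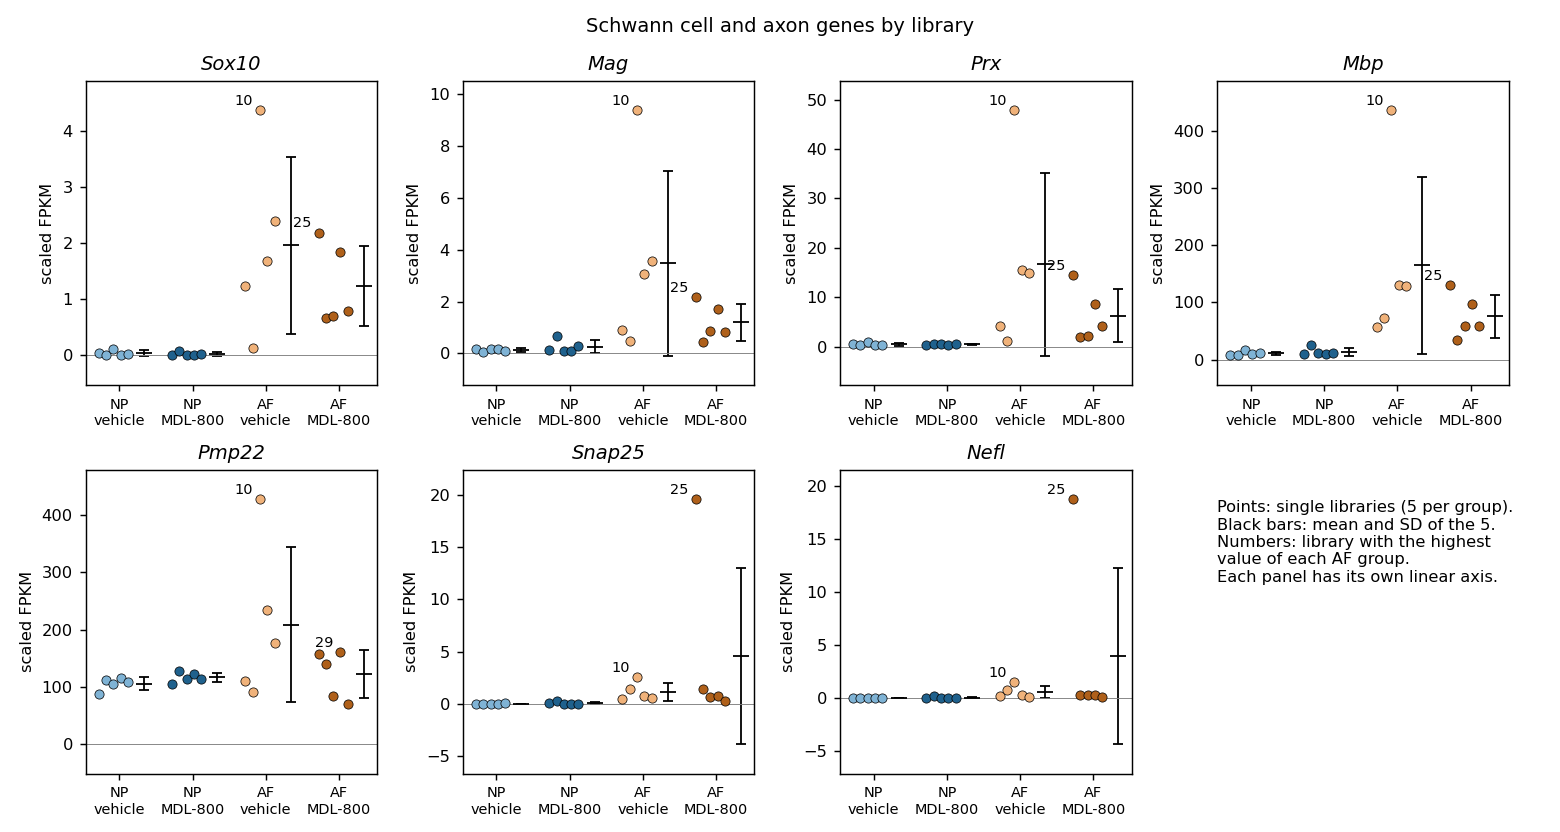
Scaled FPKM (linear axes, one per gene) of the 7 genes in each library of the 4 groups. Points are libraries, black bars the mean and SD of 5. AF vehicle library 10 is the highest library for Sox10, Mag, Prx, Mbp and Pmp22, and AF MDL-800 library 25 for Snap25 (19.6) and Nefl (18.7).

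Sox10 encodes the transcription factor that specifies the Schwann cell lineage and is needed at every later stage of it. In NP of vehicle-treated mice its scaled FPKM was 0.0429, 0, 0.111, 0 and 0.0198 in libraries 1, 2, 3, 5 and 6, and under MDL-800 it was 0, 0.0631, 0, 0 and 0.0206 in libraries 15, 18, 19, 20 and 22. AF vehicle libraries 8, 9, 10, 12 and 13 held 1.23, 0.126, 4.36, 1.68 and 2.38. AF MDL-800 libraries 25, 27, 28, 29 and 30 held 2.18, 0.656, 0.691, 1.83 and 0.787. Sox10 was thus listed at 0 in 5 of 10 NP libraries and above 0 in every AF library. The NP and AF groups did not overlap in either treatment, although AF vehicle library 9 came close to NP vehicle library 3. The log2 difference of NP from AF was -1.34 (SE 0.33, limma adjusted p = 0.00557) with vehicle and -1.07 (SE 0.19, adjusted p = 0.000639) with MDL-800.

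Mag encodes myelin-associated glycoprotein, a sialic-acid-binding adhesion molecule on the inner surface of the sheath facing the axon. Its scaled FPKM in NP vehicle was 0.172, 0.0413, 0.182, 0.187 and 0.0988, and in NP MDL-800 0.139, 0.673, 0.111, 0.0952 and 0.299, with libraries in the order given for Sox10. In AF vehicle it was 0.9, 0.473, 9.37, 3.04 and 3.57, and in AF MDL-800 2.16, 0.45, 0.859, 1.7 and 0.825. NP and AF did not overlap with vehicle. With MDL-800 they did, because NP library 18, the highest NP library, stood above AF library 27. The log2 difference of NP from AF was -1.63 (SE 0.44, limma adjusted p = 0.00881) with vehicle. With MDL-800 it was -0.76 (SE 0.22, adjusted p = 0.011). After quantile normalization Mag was no longer called in either treatment, at adjusted p = 0.0508 (log2 difference -1.12) and 0.408 (-0.19) in limma, nor with MDL-800 when all 4 groups shared the fit (0.0802).

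Prx encodes periaxin, a scaffold that ties the outer Schwann cell membrane to the basal lamina and is not found in oligodendrocytes. Its scaled FPKM was 0.536, 0.382, 1.04, 0.316 and 0.405 in NP vehicle, and 0.408, 0.505, 0.535, 0.466 and 0.659 in NP MDL-800. In AF vehicle it was 4.12, 1.24, 47.8, 15.5 and 14.9, and in AF MDL-800 14.4, 2, 2.15, 8.73 and 4.29. Every AF library was above every NP library, by the smallest margin in AF vehicle 9. Within AF vehicle the mean of 16.7 ± 18.5 (SD, n = 5) had a spread larger than itself. The log2 difference of NP from AF was -2.83 (SE 0.67, limma adjusted p = 0.00432) with vehicle and -1.98 (SE 0.41, adjusted p = 0.00157) with MDL-800.

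Mbp (ENSMUSG00000041607, chr18:82475146-82585637, plus strand) encodes myelin basic protein, which holds the cytoplasmic faces of the myelin membrane together. It was detected throughout NP, at 8.82, 8.45, 16.2, 10.1 and 11.4 scaled FPKM with vehicle and at 10.1, 25.3, 12.2, 9.47 and 11.1 with MDL-800. In AF vehicle it was 56.7, 72.3, 436, 131 and 128, and in AF MDL-800 130, 34.8, 59.5, 97.3 and 59.1. No NP library reached the level of any AF library. The means were 11 ± 3.13 (SD, n = 5) in NP vehicle, 13.6 ± 6.62 in NP MDL-800, 165 ± 155 in AF vehicle and 76.1 ± 37.4 in AF MDL-800. The log2 difference of NP from AF was -3.43 (SE 0.46, limma adjusted p = 0.000122) with vehicle and -2.35 (SE 0.35, adjusted p = 0.000191) with MDL-800.

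Pmp22 encodes peripheral myelin protein 22, a membrane protein of compact myelin whose gene dosage is altered in inherited neuropathies. Its scaled FPKM was 87.6, 112, 106, 115 and 109 in NP vehicle and 105, 127, 114, 122 and 114 in NP MDL-800. AF vehicle held 111, 92, 427, 235 and 177, and AF MDL-800 158, 140, 84.1, 160 and 69.8. NP and AF overlapped in both treatments. With vehicle no AF library lay below the NP range, and with MDL-800 AF libraries 28 and 30 lay below it and 25, 27 and 29 above. The log2 difference of NP from AF was -0.75 (SE 0.35, limma adjusted p = 0.0902) with vehicle and 0.01 (SE 0.23, adjusted p = 0.985) with MDL-800. The vehicle difference passed the threshold when all 4 groups shared the fit (adjusted p = 0.0445) and when AF vehicle 9 was left out (0.0235).

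**Figure D2:**
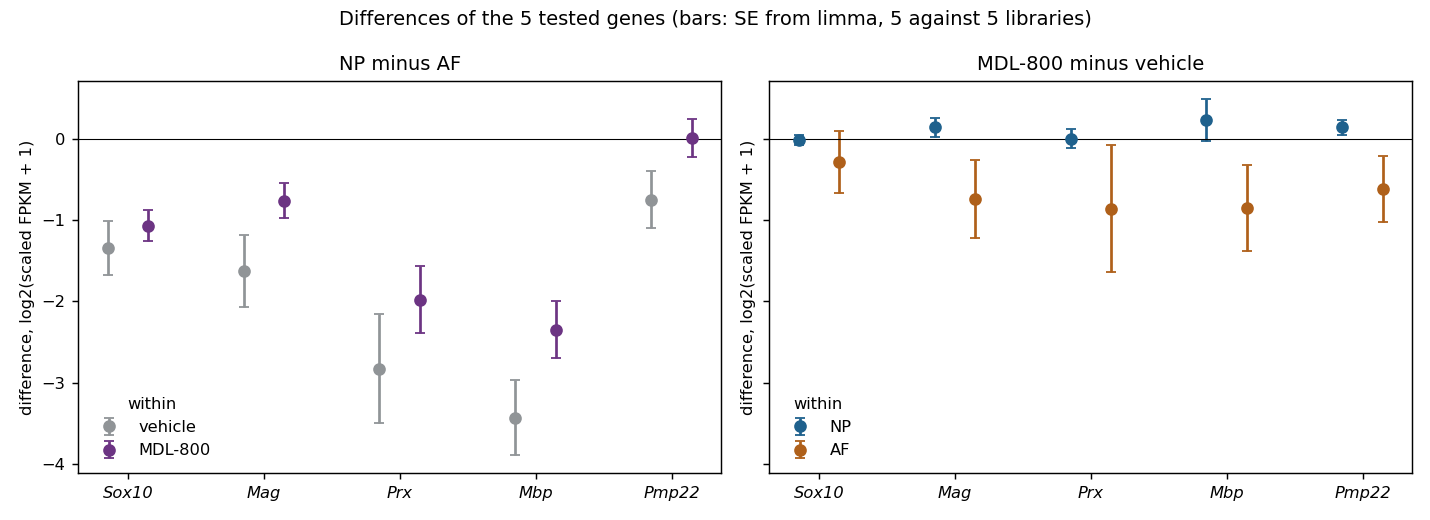
Differences in log2(scaled FPKM + 1) of the 5 tested genes, with SE from limma, 5 against 5 libraries. Left, NP minus AF within vehicle and within MDL-800, from -3.43 for Mbp with vehicle to 0.01 for Pmp22 with MDL-800; right, MDL-800 minus vehicle within NP, near 0, and within AF, from -0.86 to -0.29 with wide errors.

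Snap25 encodes a SNARE protein of synaptic vesicle release, and Nefl the light subunit of the neurofilaments that fill large axons. Snap25 was listed at 0 in 4 of 5 NP vehicle libraries and in 3 of 5 NP MDL-800 libraries, and its highest NP value was 0.242 scaled FPKM in library 18. In AF vehicle it was 0.471, 1.38, 2.53, 0.771 and 0.537, and in AF MDL-800 19.6, 1.41, 0.662, 0.761 and 0.294. All AF values were above all NP values, and 1 library, AF MDL-800 25, was far above the rest. With the filter on low values removed, the log2 difference of NP from AF was -1.01 (SE 0.22, limma adjusted p = 0.00765) with vehicle, where 32.7% of 32358 genes were called. With MDL-800 it was -1.44 (SE 0.69, adjusted p = 0.144), where 37.5% were called. Without AF MDL-800 25 that difference was smaller, -0.73 (SE 0.17), and passed the threshold (adjusted p = 0.00984).

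Nefl was listed at 0 in 4 of 5 NP vehicle libraries and in 3 of 5 NP MDL-800 libraries, with a highest NP value of 0.147 scaled FPKM, again in library 18. In AF vehicle it was 0.136, 0.714, 1.48, 0.257 and 0.0942, and in AF MDL-800 18.7, 0.284, 0.267, 0.231 and 0.0379. The tissues did not overlap with vehicle and overlapped with MDL-800, where AF library 30 lay below NP library 18. With no filter, the log2 difference of NP from AF was -0.54 (SE 0.21, limma adjusted p = 0.0825) with vehicle and -1.03 (SE 0.77, adjusted p = 0.356) with MDL-800. Without AF MDL-800 25 the second was -0.22 (SE 0.07, adjusted p = 0.0458). A single read of Nefl gave 0.014 to 0.025 FPKM, and one of Snap25 0.0069 to 0.012.

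MDL-800 was not associated with a called change of any member in either tissue. In NP, 0.250% of tested genes were called, 0.232% higher and 0.0183% lower. The log2 difference of MDL-800 from vehicle in NP was 0.23 (SE 0.26, limma adjusted p = 0.75) for Mbp, 0.14 (SE 0.09, adjusted p = 0.495) for Pmp22 and 0.14 (SE 0.12, adjusted p = 0.669) for Mag. Prx stood at 0 (SE 0.12) and Sox10 at -0.02 (SE 0.06). The value for Mbp in NP rested on NP MDL-800 library 18, without which it was -0.01. With no filter, where 0.0216% of genes were called, Snap25 stood at 0.06 (SE 0.06, limma adjusted p = 0.761) and Nefl at 0.04 (SE 0.04, adjusted p = 0.761).

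In AF, 0% of the 16383 tested genes were called by limma, with 270 at an unadjusted p under 0.05, none of them a member. In this comparison the 5 tested genes had lower mean log2 values with MDL-800, with differences of -0.85 (SE 0.53) for Mbp, -0.86 (SE 0.78) for Prx, -0.74 (SE 0.48) for Mag, -0.62 (SE 0.41) for Pmp22 and -0.29 (SE 0.38) for Sox10. Each had a limma adjusted p of 1, and unadjusted p-values ran from 0.139 to 0.463. The treatment groups overlapped in AF for every member. Of 23 tested genes of peripheral myelin and Schwann cells, 20 had lower means with MDL-800 (median log2 difference -0.43) and 3 higher ones. Genes of other tissues also leaned one way in this comparison without a call. All 10 bone genes had higher means with MDL-800 (median log2 difference 0.76) and 9 of 10 muscle genes lower ones (median -0.39), against 0.01 over all genes. Means were also higher for 10 of 10 neutrophil, 9 of 10 endothelial, 8 of 9 red blood cell and 8 of 10 fat genes (medians 0.15 to 0.25). Their part in the members' values was not tested. AF vehicle library 10 carried much of the members' differences: without it Mbp was at -0.4 and Prx at -0.31. With no filter, Snap25 stood at 0.5 (SE 0.72) and Nefl at 0.53 (SE 0.79), and without AF MDL-800 25 at -0.22 (SE 0.3) and -0.28 (SE 0.24), all with a limma adjusted p of 1. The difference of the treatment effect between the tissues (NP minus AF) was 1.08 (SE 0.62) for Mbp, 0.87 (SE 0.52) for Mag, 0.85 (SE 0.84) for Prx, 0.76 (SE 0.44) for Pmp22 and 0.26 (SE 0.4) for Sox10. All had a limma adjusted p of 1, 0% of all genes were called, and 611 genes had an unadjusted p under 0.05. Ordered by group mean, Sox10, Mag, Prx and Mbp were highest in AF vehicle, then in AF MDL-800, with both NP groups far below. Between the AF groups, and between the NP groups, no difference passed the test.

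Single AF libraries stood apart in nerve genes. AF vehicle 10 was the highest AF library for 5 of the 7 members, namely Sox10, Mag, Prx, Mbp and Pmp22. It was also the highest AF library for 19 of 25 other genes of peripheral myelin and Schwann cells, among them Pllp (plasmolipin, a myelin membrane protein) at 23.5 scaled FPKM. AF vehicle 10 exceeded the next AF library by more than 2 times for 3 of these 25 genes and by more than 5 times for 0. For 7 of 10 genes of central nervous system glia it was highest too. Of these, Olig2, Hapln2, Ermn, Klk6 and Mog were low in AF vehicle 10, at 0.105 to 0.477 scaled FPKM. Mobp, a protein of oligodendrocyte myelin, stood at 9.54 there and at 0.628 to 5.63 in the other AF libraries. Slc1a2, an astrocyte gene, stood at 3.18 there and at 0.171 to 1.66 in the others. Mog and Opalin, which mark oligodendrocytes, reached at most 0.477 and 0.0569 in AF.

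AF MDL-800 25 stood apart in another set of genes. It was the highest AF library for Snap25 and Nefl and for 27 of 35 other genes of axons and neurons, 20 of them by more than 2 times over the next AF library and 12 by more than 10 times. It was the highest for 0 of 25 genes of peripheral myelin and Schwann cells. Of 13 genes of non-myelinating and injury-response Schwann cells it was the highest for 4, and 3 of these exceeded the next AF library by more than 2 times. These 3 were Ngfr (7.31 scaled FPKM against at most 1.85), Gap43 (6.55 against at most 0.956) and Gfra3 (2.73 against at most 0.68). The neuron genes that led in this library included markers of pain-sensing neurons. Calca, the precursor of the neuropeptide CGRP, stood at 59.6 scaled FPKM in this library and at 0.178 to 0.992 in the other AF libraries. Tac1, the precursor of substance P, stood at 16.7 against 0.0494 to 0.858. Scn10a, a sodium channel of nociceptors, stood at 9.48 against at most 0.0392. Markers of other peripheral neurons were mixed, with Th (catecholamine synthesis) at 4.8 but Dbh at 0.0194 and Chat listed at 0. Tubb3, a neuronal tubulin, stood at 40.1 against 0.579 to 1.59. In neither of these 2 libraries was any of the 10 muscle, 10 endothelial, 9 red blood cell, 10 neutrophil, 10 bone or 10 fat genes at its highest AF level.

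**Figure D3:**
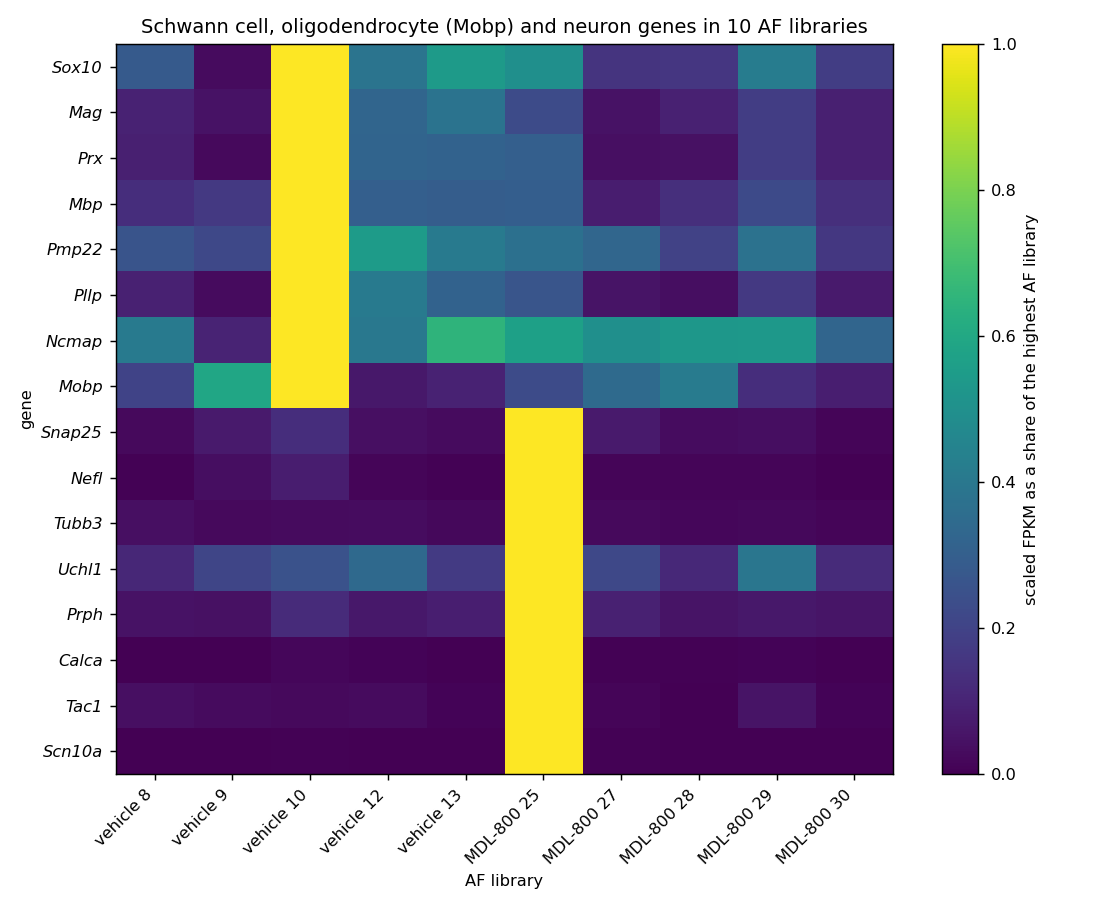
Scaled FPKM of members and related genes in the 10 AF libraries, each gene as a share of its highest AF library (colour, 0 to 1). The upper rows, myelin and Schwann cell genes with the oligodendrocyte gene Mobp, peak in AF vehicle 10; the lower rows, neuron genes, peak in AF MDL-800 25, where Calca is at 59.6.

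The myelin and neuron genes thus reached their highest levels in different libraries. In AF MDL-800 25 the myelin members were within the range of the other AF libraries, with Mbp the third and Mag the fourth highest of 10. In AF vehicle 10 Snap25 was 2.53 and Nefl 1.48, each second only to AF MDL-800 25. AF vehicle 9 held the lowest Prx and Sox10 of all AF libraries but Mbp at 72.3, and Mobp at 5.63. Its ratio of Mbp to Mag was 153, against 35.9 to 77.2 in the other AF libraries and 37 to 205 in NP libraries. The 10 NP markers summed to 15180 scaled FPKM in AF vehicle 9, against 2523 to 7604 in the other AF libraries. Its sum of the 10 AF markers, 3458, was the lowest in AF. The part of NP tissue in the levels of AF vehicle 9 was not tested. NP MDL-800 18 was the highest NP library for 5 of the 7 members, Mbp, Pmp22, Mag, Snap25 and Nefl, and held Mobp at 1.31 against at most 0.698 in the other NP libraries. Its Prx, at 0.505, was within the range of the other NP libraries. It was also the highest NP library for 5 of 10 endothelial and 6 of 10 fat genes, and for 1 of 25 genes of peripheral myelin and Schwann cells. NP vehicle 3 was the highest NP library for the other members, Sox10 and Prx, for 12 of those 25 genes and for all 10 muscle genes. The part of these tissues in the members' levels was not tested. The part of such libraries in the tissue difference was measured by leaving each out in turn: the called genes among the members numbered 4 to 5 with vehicle and 4 with MDL-800.

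**Figure D4:**
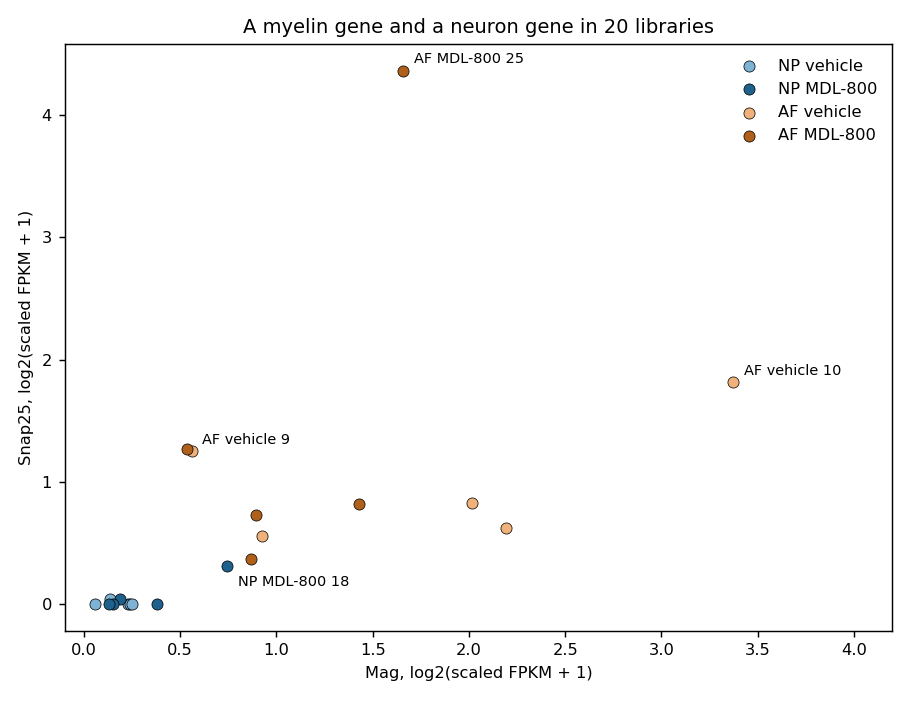
Mag against Snap25 in 20 libraries, both as log2(scaled FPKM + 1), coloured by group. NP libraries lie near the origin, AF vehicle 10 is highest in Mag (9.37 FPKM) and AF MDL-800 25 in Snap25 (19.6 FPKM).

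The genes most like each member across the 10 AF libraries were found among 15105 genes, by Pearson's r of log2 values centred within treatment, as a description without a test. Prx was most like Pllp (r = 0.993) and Cadm4, an adhesion molecule between Schwann cell and axon (0.981). Mag was most like Prx (0.967), Pllp (0.965) and Ugt8a, an enzyme of myelin galactolipid synthesis (0.953). Sox10 was most like Prx (0.967), Kank4 (0.954) and Pllp (0.953). Mbp was most like Sptbn5 (0.959), Mag (0.946) and Ugt8a (0.917). Pmp22 was most like genes outside this set, Tmem37 (0.969), Sdk1 (0.967) and Gm37352 (0.966). These points share their libraries, and AF vehicle 10 is the highest of the 10 for each of these 5 members.

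Most other genes of peripheral myelin and Schwann cells were also lower in NP. Of 25 such genes, 23 were tested, and in vehicle-treated mice 18 were called lower in NP, 4 higher and 1 was not called. Over all tested genes, 33.9% were called lower and 21.8% higher. The median log2 difference of the list was -1.21, against -0.08 over all tested genes. In part this follows from the filter, since 7 of the 23 reached 1 FPKM in AF libraries only, and all 7 were among the 18. Ncmap, Drp2, Mal and Egr2 exceeded 1 scaled FPKM in some NP libraries, but their NP medians were 0.563 to 0.897. These genes, too, entered the tests through AF. With MDL-800 the counts were again 18, 4 and 1, with a median of -0.99 against -0.08. Over all tested genes, 37.2% were then called lower and 25.6% higher. Ncmap, a protein of noncompact myelin, had a log2 difference of -3.24 (SE 0.46, limma adjusted p = 0.000172) with vehicle. Cnp, an enzyme of the myelin cytoplasm, was less different at -1.18 (SE 0.14). Art3, a membrane ectoenzyme, stood at -1.83 (SE 0.43). Egr2, the transcription factor that drives myelin genes, was lower in NP with a log2 difference of -1.29 (SE 0.30, adjusted p = 0.00395).

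The other genes called in this list were higher in NP. With vehicle they were Gldn, S100b, Sh3tc2 and Erbb3. Gldn encodes gliomedin, a secreted organiser of the node of Ranvier, and was 28.3 to 56.9 scaled FPKM in NP vehicle and 5.9 to 19.4 in AF vehicle (log2 difference 1.66, SE 0.29, limma adjusted p = 0.000655). S100b, a calcium-binding protein of Schwann cells that chondrocytes also express, was 126 to 175 in NP vehicle and 67.7 to 114 in AF vehicle (0.68, SE 0.16). Sh3tc2, an endosomal protein needed in myelinating Schwann cells, had a log2 difference of 1.27 (SE 0.27), and Erbb3, a receptor for neuregulin, 0.49 (SE 0.17). With MDL-800 the genes called higher were Gldn, Sh3tc2, Erbb3 and Cldn19, while S100b did not pass (0.52, SE 0.22, adjusted p = 0.0564).

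Cldn19, a claudin of Schwann cell tight junctions, was the only gene of the 4 nerve lists called between treatments. In NP it was 5.49, 5.99, 7.94, 8.9 and 7.33 scaled FPKM with vehicle and 14.4, 11.9, 12.1, 14.4 and 12.1 with MDL-800, without overlap, a separation that 3.50% of all tested genes showed in this direction. The log2 difference was 0.79 (SE 0.13, limma adjusted p = 0.0411). The call was lost in 8 of 10 fits that left out a library, being kept without NP vehicle 5 (0.0414) or 6 (0.0387) and ranging up to 0.14. It was also lost without the filter (0.109), without scaling (0.0813), without the variance trend (0.0527) and with all 4 groups in the fit (0.425). In AF the log2 difference was -0.73 (SE 0.47, adjusted p = 1), and the treatment effects of the tissues differed by 1.52 (SE 0.51, limma adjusted p = 1).

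Genes of non-myelinating and injury-response Schwann cells were tested in 6 of 13 cases. With vehicle 4 were called lower in NP and 2 higher, where 33.9% of all tested genes were lower and 21.8% higher. With MDL-800 4 were lower and 1 higher, where 37.2% of all tested genes were lower and 25.6% higher. The medians were -1.34 and -1.23, against -0.08 over all genes. Of the 6, 3 (Scn7a, Gfap and Chl1) reached 1 FPKM in AF libraries only, so their direction was set by the filter. Scn7a, a sodium channel of non-myelinating Schwann cells, was lower in NP with a log2 difference of -2.63 (SE 0.33, limma adjusted p = 8.54e-05) with vehicle, Gfap, an intermediate filament of glia, at -1.99 (SE 0.31) and L1cam, an adhesion molecule, at -0.69 (SE 0.20). Ncam1, an adhesion molecule also expressed in muscle, was higher in NP by 1.08 (SE 0.18). Shh, a secreted signal that notochord-derived cells also make, was higher by 1.19 (SE 0.42, adjusted p = 0.0323) with vehicle, and with MDL-800 its difference was 0.46 (SE 0.45, adjusted p = 0.395). The count of genes called higher with vehicle was 1 in place of 2 in 5 of 10 fits that left out a library: NP vehicle 1 or 2, or AF vehicle 8, 10 or 13.

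**Figure D5:**
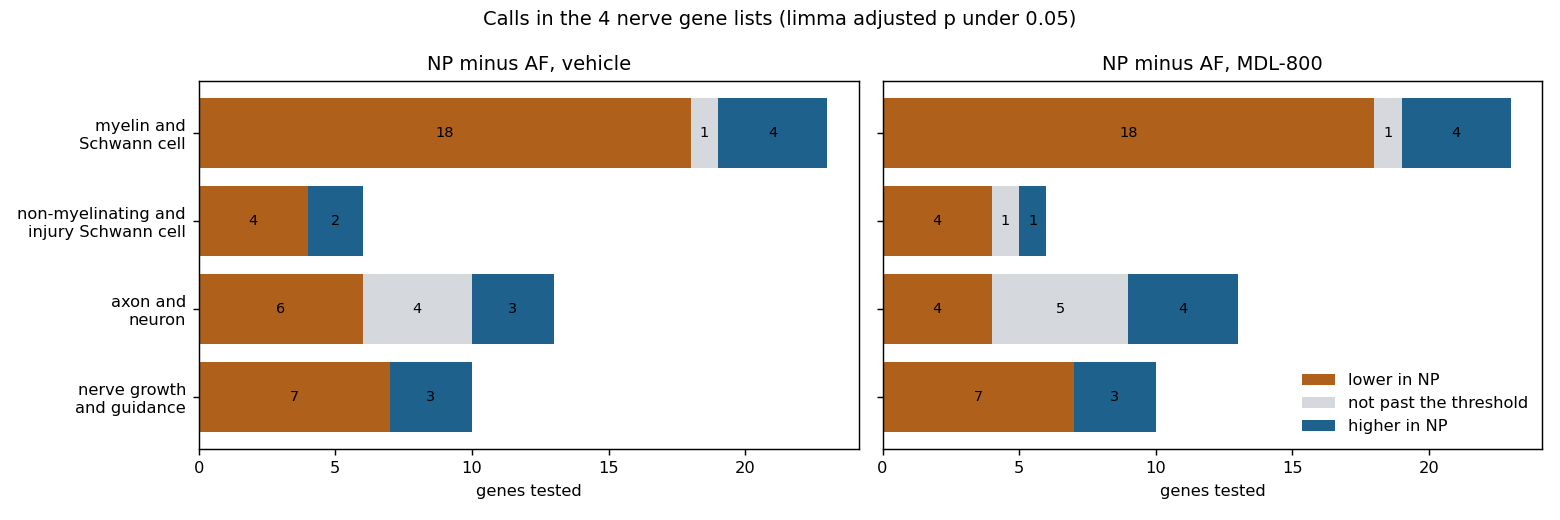
Number of tested genes in each of 4 nerve gene lists called lower in NP, higher in NP or not called (limma adjusted p under 0.05), with vehicle on the left and MDL-800 on the right. The list of myelin and Schwann cell genes has 18 lower and 4 higher in both panels, and the axon and neuron list is more evenly divided.

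Genes of axons and neurons were called in both directions. Of 35 genes, 13 were tested, and with vehicle 6 were called lower in NP, 3 higher and 4 were not called, with a median of -0.44 against -0.08. These shares, 46.2% lower and 23.1% higher, are near the 33.9% and 21.8% over all tested genes, and 5 of the 6 lower genes reached 1 FPKM in AF libraries only. Stmn2, also tested, exceeded it in a single NP library, at 1.09 scaled FPKM, and so entered the tests through AF as well. The direction of these genes, Sncg and Tubb3 among them, was set by the filter. With MDL-800 4 were lower, 4 higher and 5 not called, with a median of -0.8. Either share was 30.8%, against 37.2% lower and 25.6% higher over all tested genes. Sncg, gamma-synuclein of sensory neurons that fat cells also express, was lower in NP with a log2 difference of -3.32 (SE 0.33, limma adjusted p = 2.21e-05) with vehicle, and Tubb3 stood at -1.07 (SE 0.11). The higher ones were the microtubule-associated proteins Map2 (2.52, SE 0.40) and Mapt (1.45, SE 0.25) and the vesicle protein Vamp2 (0.45, SE 0.10). Map2 was 80.2 to 138 scaled FPKM in NP vehicle and 6.7 to 38.6 in AF vehicle, while Tubb3 was at most 0.0809 in NP vehicle. Uchl1, a neuronal ubiquitin hydrolase, had a log2 difference of -0.80 (SE 0.45, adjusted p = 0.154). With MDL-800 Tubb3 was not called (-1.64, SE 0.79, adjusted p = 0.0933), its AF mean holding the 40.1 of library 25.

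Factors that guide or feed growing nerve fibres differed between the tissues in both directions. Of 15 such genes, 10 were tested. In each treatment 7 (70.0%) were called lower in NP and 3 (30.0%) higher. Over all tested genes the shares were 33.9% and 21.8% with vehicle, and 37.2% and 25.6% with MDL-800. The medians were -1.16 with vehicle and -1.29 with MDL-800, against -0.08. Of the 7 lower genes, 4 reached 1 FPKM in AF libraries only. Nrp1 and Efna5 exceeded 1 scaled FPKM in some NP libraries, with NP medians of 0.33 to 0.444. They, too, entered the tests through AF. The direction of these genes and of the 4, Sema3a among them, was set by the filter. Nrp1, a receptor for semaphorins that endothelium also carries, was lower in NP with a log2 difference of -3.57 (SE 0.24, limma adjusted p = 3.98e-06) with vehicle. Sema3a, a repellent of sensory axons, stood at -2.57 (SE 0.15) and the guidance factor Ntn1 at -0.73 (SE 0.21). The repellents Slit2 (2.34, SE 0.28) and Slit3 (1.46, SE 0.22) and the semaphorin Sema3c (0.76, SE 0.18) were higher in NP. Slit2 was 116 to 188 scaled FPKM in NP vehicle and 18.1 to 56.4 in AF vehicle, with no overlap, a separation that 15.1% of all tested genes showed in this direction.

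Genes of other tissues around the disc moved with the same contrast. With vehicle, all 10 muscle, 10 endothelial, 9 red blood cell, 10 neutrophil and 10 bone genes and 9 of 10 fat genes were called lower in NP, and the counts were the same with MDL-800. Of these, 5 endothelial, 4 bone and 2 fat genes reached 1 FPKM in AF libraries only. Over all tested genes, 33.9% were called lower with vehicle and 37.2% with MDL-800. The summed level of the 10 endothelial genes was 15.3 to 26.3 scaled FPKM in NP vehicle and 81.1 to 170 in AF vehicle. For muscle the sums were 20.4 to 1590 in NP vehicle and 1270 to 10600 in AF vehicle, for neutrophils 210 to 3330 and 7920 to 20700, and for bone 13.3 to 100 and 286 to 1250. Melanocytes share Sox10 with Schwann cells, and their genes went different ways. With vehicle, Mlana (31.5 in NP, 7.74 in AF, group means) and Mitf (25.4 and 14.5) were called higher in NP. Tyr (0.307 and 0.306), Pmel (0.308 and 0.458) and Tyrp1 (0.00405 and 0.107) were low in both tissues and not tested, and Dct was listed at 0 in all NP libraries. Genes of central nervous system glia were also mixed. Aldh1l1, an astrocyte enzyme found in other tissues too, was called higher in NP (4.63 against 2.61), and Mobp lower (0.212 against 3.72). Slc1a2 (0.202 and 1.47) and Aqp4 (0.075 and 0.834), both astrocyte genes, were not tested. The part of these cells in the lower nerve gene levels of NP was not tested.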

How the data were processed

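The authors deposited a table of FPKM values for 51789 genes in 20 libraries of stranded total RNA depleted of ribosomal RNA, per the labels' protocols. Reads were aligned with STAR 2.7.11b to mm10, per the submitters' processing notes; the program that made the FPKM values is not given in the sources used here. Values were divided by median-ratio factors (0.933 to 1.06, over 11308 genes). Genes at 1 FPKM in 5 or more libraries (16383) were tested with limma 3.58.1 (R 4.3.3, lmFit, eBayes with trend, two-sided) on log2(scaled FPKM + 1), each pair of groups on its own and the difference of treatment effects with all 4 groups. On simulated data with 200 genes changed by 1 on the log2 scale, the test found 66% for NP against AF with vehicle, 77% for the same with MDL-800, 77.5% for treatment in NP and 62% for treatment in AF. These shares are averages over the 200 changed genes, while 9127 genes were called in the data for NP against AF with vehicle. For the tested members, the SE of the treatment difference in AF was 0.38 to 0.78. The share found among genes with such SEs was not tested. Depth was estimated from 6647 single-exon genes, 76.0% to 82.1% of whose low values fell within 0.12 reads of a whole number.

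The members and gene lists were chosen with earlier results of these data known. Besides the 7 members, each nerve list names its 4 genes of highest mean and 3 of smallest p (NP against AF, vehicle), and any gene called between treatments; other genes named were chosen after their values were seen. A few genes this rule takes are not reported here, though they are in the list counts. Sequences and gene positions come from RefSeq and GENCODE M21 (51596 of 51789 identifiers matched). An upstream window was used here for 3 members, Mag, Prx and Pmp22. Windows of chromosome 18, where Mbp lies, were left out of the search of members. Alternatives were other pseudocounts, filters, scalings and fits, and leaving out each library.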

Additional observations from a re-analysis of the deposited data

Results flagged for a closer look

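Each member was checked in each group of 5 libraries for a highest or lowest library far from the others, by Dixon's ratio with a critical value of 0.71. Of 28 such groups 8 had one. In 2 of the 8, 4 of the 5 libraries were listed at 0, so that any read gives the highest ratio and no chance rate applies. For normally distributed values, chance gives about 1 in 20 groups. This rate does not hold for Snap25 and Nefl in NP MDL-800, where 3 of 5 libraries were listed at 0. For the rest it is a guide only, since linear FPKM need not be normal and the members are not independent of each other. Mbp was 436 scaled FPKM in AF vehicle 10, the others being at most 131, and 25.3 in NP MDL-800 18, the others being at most 12.2. Snap25 was 19.6 and Nefl 18.7 in AF MDL-800 25. In NP MDL-800 18, Snap25 was 0.242 and Nefl 0.147. Snap25 was 0.0296 in NP vehicle 6 and Nefl 0.0214 in NP vehicle 1, which are the cases with 4 libraries at 0. These last values are those of a few reads.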

How the results depend on the processing

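The number of members called in NP against AF was 4 with vehicle and 4 with MDL-800. It was 2 in both under a filter of 1 FPKM in 10 of 20 libraries, which leaves fewer members tested, and between 3 and 5 under the other alternatives. Leaving out each library gave 4 to 5 with vehicle and 4 with MDL-800. No member was called between treatments, or in the difference of treatment effects, under any alternative run. Both AF vehicle 10 and AF MDL-800 25 left out, Mbp in AF stood at -0.62 and Prx at -0.66 between treatments.

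Some small differences changed sign. Pmp22 in NP against AF with MDL-800 was 0.01, -0.08 without scaling and -0.18 to 0.12 without single libraries. Over all alternatives and omissions it ran from -0.18 to 0.31. In MDL-800 against vehicle in NP, Mbp was 0.23 and -0.01 to 0.37 without single libraries, Prx was 0.04 with a pseudocount of 0.1, 0 with 0.5 and -0.05 to 0.1 without single libraries, and Sox10 was -0.04 to 0 without single libraries. The cause was not tested.

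Counts for the lists depend on the filter. Myelin genes called lower in NP numbered 18, or 11 under the filter of 10 libraries, in both treatments. With vehicle and no filter, 10 non-myelinating Schwann cell genes were lower and 1 higher, 10 axon and neuron genes lower and 6 higher, and 11 growth and guidance genes lower. The axon and neuron genes called lower were 3 under the filter of 10 libraries.

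Column headers carry a number that NP and AF libraries share, and the labels do not say what it marks. The correlation of deviations from the group means ran from -0.178 to 0.285 over 5 vehicle pairs and from -0.176 to 0.17 over 3 MDL-800 pairs. The best AF match was the library of the same number for 10 and 39 only. Correlations between different tissues cannot show whether a number marks an animal. The main tests were unpaired, and whether NP and AF are paired is not known. With this number as a replicate block, chosen after seeing the data, 4 members were called with vehicle and 3 with MDL-800 (3 pairs only), and 2 non-myelinating Schwann cell genes were higher in NP with MDL-800. Treatment groups share no number, so no paired analysis was possible there because fewer than 2 numbers are shared. Depth limits Snap25, Nefl and Sox10 in NP, where most values are 0 or those of a few reads.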
